A study of Mus musculus with 24 samples.

Results

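A group of 7 genes that set vascular tone or build caveolae was read in the deposited maps of histone marks in lung endothelium: Nos3, Edn1, Ece1, Ace, Ptgis, Cav1 and Cav2. They were taken by name, 7 of the 20661 protein-coding genes on chromosomes 1 to 19, and every peak overlapping the gene body or 5000 bp on either side of it was counted. The cells were lung endothelial cells, sorted by flow cytometry from Dnmt3a knockout mice (KO) and wild-type mice (WT), where Dnmt3a encodes an enzyme that methylates DNA anew. The sources used here do not give the knockout allele, any Cre driver, the strain, the age or the number of mice per sample. In the assay, ACT-seq, a Tn5 transposase bound to an antibody inserts sequencing adapters near the histone mark. There were 24 samples by the labels, in 8 groups of 3 (a mark in a genotype), and the values are 1 peak list per group. Each genotype difference below is therefore a difference between 2 lists, without a spread between replicates, a peak height or a test, and the sequencing depth is unknown.

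Endothelial cells regulate the calibre of vessels by releasing short-lived mediators. Nos3 (endothelial nitric oxide synthase) and Ptgis (prostacyclin synthase) make relaxing signals, Edn1 encodes the precursor of the constrictor endothelin-1, Ece1 is the enzyme that cuts this precursor to its active form, and Ace converts angiotensin I to the constrictor angiotensin II and is abundant on lung capillaries. Cav1 and Cav2 encode caveolins, the membrane proteins of caveolae, and caveolin-1 binds and restrains endothelial nitric oxide synthase. Of the marks, H3K4me3 is typical of promoters, H3K27ac of active promoters and enhancers, H3K4me1 of enhancers and promoter flanks, and H3K27me3 of silencing by Polycomb proteins.

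RefSeq (GRCm38.p6, the assembly of mm10) lists 10 start sites for 5 of the genes, and the 6 promoters below are shown as examples of shared, genotype-only and missing marks. Nos3 and Ptgis were read at the outer ends of the gene. Each run holds 250 bases before the start and 50 after it, 5′ to 3′ on the plus strand, with every CpG, the dinucleotide that DNA methyltransferases act on, in capitals. The first Ace start (chr11:105967698-105967997) lay under H3K4me3 and H3K27ac in KO only, and the second (chr11:105974939-105975238) had no peak of any list within 1000 bp. The Edn1 start (chr13:42301226-42301525) lay under a peak of all 8 lists. The third Ece1 start (chr4:137913308-137913607) lay under H3K4me1 in WT only, with a KO H3K4me1 peak ending 7 bp before it. The first Cav1 start (chr6:17306085-17306384) lay under H3K27me3 in WT only, and the Cav2 start (chr6:17280935-17281234) under the widest H3K4me3 peak of the 7 genes in KO.
Ace start 1: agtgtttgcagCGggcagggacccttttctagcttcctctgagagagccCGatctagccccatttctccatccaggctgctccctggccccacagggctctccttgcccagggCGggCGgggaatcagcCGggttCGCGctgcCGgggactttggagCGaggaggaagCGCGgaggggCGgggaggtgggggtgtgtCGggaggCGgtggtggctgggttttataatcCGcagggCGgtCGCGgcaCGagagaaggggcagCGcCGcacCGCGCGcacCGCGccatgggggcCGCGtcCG
Ace start 2: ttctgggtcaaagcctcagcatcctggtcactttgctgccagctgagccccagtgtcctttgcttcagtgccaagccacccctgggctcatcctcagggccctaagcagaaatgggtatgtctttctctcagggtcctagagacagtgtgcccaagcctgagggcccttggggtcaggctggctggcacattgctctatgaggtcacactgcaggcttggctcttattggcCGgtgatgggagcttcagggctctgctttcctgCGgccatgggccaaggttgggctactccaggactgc
Edn1 start: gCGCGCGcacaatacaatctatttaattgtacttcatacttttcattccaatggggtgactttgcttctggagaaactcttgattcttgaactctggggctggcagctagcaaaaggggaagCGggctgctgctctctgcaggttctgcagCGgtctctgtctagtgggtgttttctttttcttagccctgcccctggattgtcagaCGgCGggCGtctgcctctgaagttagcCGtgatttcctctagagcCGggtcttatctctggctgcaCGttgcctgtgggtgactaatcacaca
Ece1 start 3: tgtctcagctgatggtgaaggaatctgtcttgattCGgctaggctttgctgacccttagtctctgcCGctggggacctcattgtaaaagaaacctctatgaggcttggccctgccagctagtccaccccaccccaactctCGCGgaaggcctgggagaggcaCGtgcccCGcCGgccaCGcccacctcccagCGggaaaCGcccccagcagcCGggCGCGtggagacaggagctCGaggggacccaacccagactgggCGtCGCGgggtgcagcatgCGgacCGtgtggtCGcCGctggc
Cav1 start 1: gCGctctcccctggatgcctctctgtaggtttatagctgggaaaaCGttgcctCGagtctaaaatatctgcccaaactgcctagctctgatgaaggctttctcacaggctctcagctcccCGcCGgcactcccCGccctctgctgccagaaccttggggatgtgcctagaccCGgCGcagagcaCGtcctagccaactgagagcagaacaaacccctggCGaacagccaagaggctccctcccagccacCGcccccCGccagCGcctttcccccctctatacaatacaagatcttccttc
Cav2 start: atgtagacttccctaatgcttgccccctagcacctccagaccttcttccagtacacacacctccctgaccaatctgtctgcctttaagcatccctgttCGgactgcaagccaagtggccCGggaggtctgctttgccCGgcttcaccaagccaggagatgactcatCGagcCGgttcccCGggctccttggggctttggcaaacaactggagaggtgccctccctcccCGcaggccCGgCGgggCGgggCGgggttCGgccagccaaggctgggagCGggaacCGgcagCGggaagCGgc

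These promoters differ widely in CpG content. The first Ace promoter holds 29 CpGs, more than 82.1% of 20084 promoters of protein-coding genes, whereas the second holds 2. The first 2 Ece1 promoters, 43 bp apart and largely the same sequence, hold 28 and 26, the third 21 and the fourth 5. Cav2 and the second Cav1 promoter hold 16 each, the first Cav1 promoter 13 and Edn1 11, close to the median of 14.0 over all promoters. In these promoters 5 motifs were searched on both strands, with positions given for the first base of the match and counted from the start as base 1, with negative positions before it. The GC box GGGCGG, present in 47.0% of all promoters, occurs at 4 positions before the first Ace start (-140, -136, -75 and -18, the first 2 overlapping), at -9 and -4 of Cav2 (also overlapping) and at -118 and -2 of the first Cav1 start. It also occurs at -5 and 30 of the first Ece1 start and at -138 of the fourth. The TATA box TATAAA (12.7% of all promoters) is matched at -31 of the first Ace start and at -221 of the first Cav1 start. Both matches are on the opposite strand and read TTTATA in the printed run. The AP-1 site TGANTCA (7.06%) occurs at -92 of Cav2, and GATAA (22.3%) at 9 of Edn1 and at -215 of the second Cav1 start. The ETS site CCGGAA (19.1%) is in none of the 10 member promoters. The third Ece1 and second Ace promoters hold none of the 5. These are matches of letters only.

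The 7 windows held 108 peaks in KO and 101 in WT. All 7 genes carried H3K27ac and H3K4me1 in both genotypes. Of all genes with H3K27ac, 2.08% had it in KO only and 12.8% in WT only, and of all genes with H3K4me1, 3.01% had it in KO only and 11.3% in WT only. H3K4me3 was in both genotypes at 6 members, and at Ptgis in WT only. H3K27me3 was sparse, with 5 peaks in KO and 3 in WT over 5 of the genes. Over the protein-coding genes, 70.9% had H3K27ac, 64.8% H3K4me1, 64.8% H3K4me3 and 58.8% H3K27me3 in their window in either genotype, and H3K4me3 was listed in WT only at 2.15% of the genes that had it. Among markers of endothelium, 10 of 11 genes in both genotypes had H3K4me3 within 1000 bp of a start and 11 of 11 had H3K27ac, while none of 8 leukocyte markers had either mark there. Of 8 lung epithelial markers 4 had H3K4me3 at a start in KO and 1 in WT, and of 8 mesenchymal and mural markers 2 did in KO and 0 in WT. H3K27ac lay at a start of 4 epithelial markers in KO and 3 in WT, and of 1 mesenchymal or mural marker in KO and 2 in WT. H3K27me3 lay at a start of 7 endothelial markers in KO and 4 in WT. It lay at a start of 5 epithelial and 4 mesenchymal or mural markers in each genotype, and of no leukocyte marker. The part of other cell types in the results below was not tested.

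Because a longer gene offers more room for peaks, genes were ordered by the share of the window that peaks covered. A promoter fills more of a short window, and the windows ran from 16515 bp at Edn1 and 17946 bp at Cav2 to 112993 bp at Ece1. In bases, Cav2 H3K27ac (2734 bp in KO, 2304 bp in WT) was behind Ece1 (4764 and 4860 bp) and Cav1 (3226 and 3822 bp), and ahead of the others. Cav2 was first for H3K27ac (15.2% of its window in KO, 12.8% in WT) and for H3K4me1 (14.5% in KO, 10.5% in WT), above 98.9% or more of all protein-coding genes in each list. Ace was second for H3K4me1, with 11.2% in KO and 9.09% in WT. Ptgis was last for both marks, with H3K27ac over 2.63% of its window in KO and 3.01% in WT and H3K4me1 over 4.52% in KO and 3.85% in WT. Even these were above the median over all genes, 1.07% in KO and 1.55% in WT for H3K27ac and 0.732% in KO and 0.951% in WT for H3K4me1. With 1 list per group, neighbours in this order cannot be told apart beyond error.

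**Figure D1:**
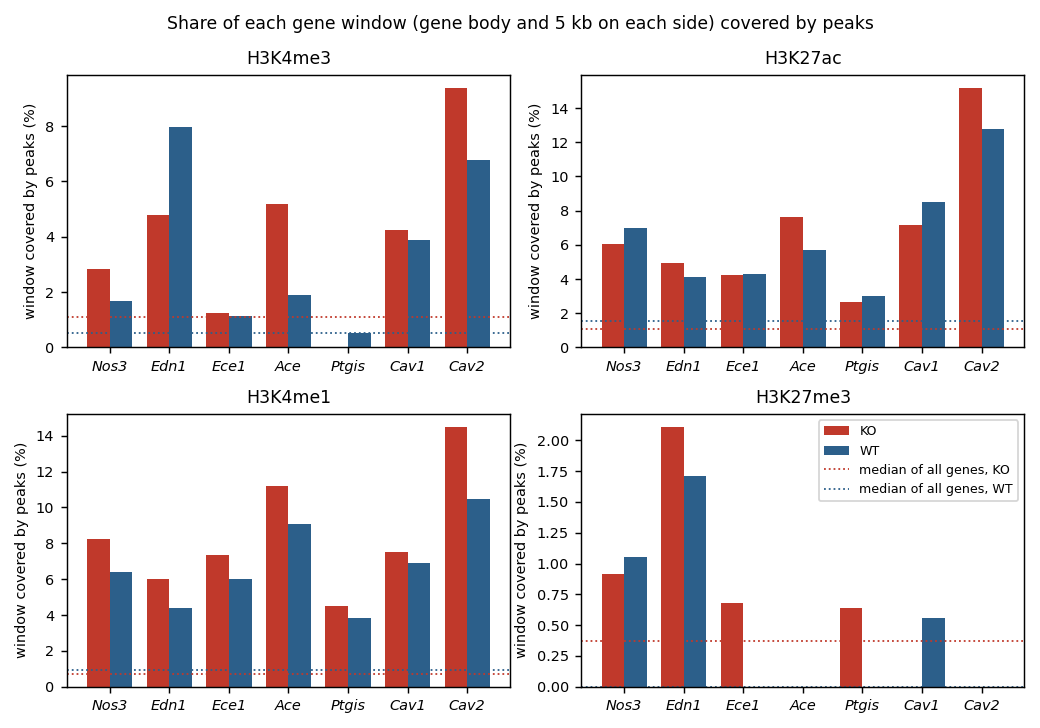
Percent of each gene window (gene body and 5000 bp on each side) covered by peaks of 4 marks, with KO bars to the left of WT bars and dotted lines at the median of 20661 protein-coding genes in each genotype. Cav2 has the highest H3K27ac and H3K4me1 cover in both genotypes, all 7 genes have more H3K4me1 in KO, and H3K4me3 is higher in KO at Ace (5.19% in KO, 1.90% in WT) and lower in KO at Edn1 (4.77% in KO, 7.98% in WT).

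Between genotypes, H3K4me1 was the mark with the most uniform difference. It covered more bases in KO at 7 of 7 genes, against 60.3% of all genes with the mark in both genotypes, and the KO over WT ratio ran between 1.09 at Cav1 and 1.39 at Cav2. The median ratio was 1.23 for the 7 genes and 1.11 for all genes. The ratio of summed H3K4me1 cover was 1.22 over the 7 genes, close to 1.19 over the whole lists. None of the 7 reached a ratio of 1.5, which 19.5% of all genes did. H3K27ac covered nearly equal lengths in total, 17320 bp in KO and 17340 bp in WT, and was higher in KO at Cav2, Ace and Edn1 and lower at the other 4, with no ratio beyond 1.5 in either direction (5.25% of all genes with the mark in both were at least 1.5 times higher in KO and 26.8% lower). Less H3K27ac in KO, found at 4 of the 7, was found at 72.9% of all such genes. The median H3K27ac ratio was 0.980 for the 7 genes, against 0.833 over all genes. H3K4me3 covered more in KO at 5 of the 6 genes with it in both genotypes, all but Edn1, close to the 78.9% of all such genes. The difference was at least 1.5 times at Ace and Nos3, and at least 1.5 times in the other direction at Edn1 (32.6% and 2.79% of all such genes). The median H3K4me3 ratio, 1.24, was near that of all genes, 1.26. For summed cover, the H3K4me3 ratio was 1.19 over the 7 genes and 1.46 over the whole lists. Over the 7 genes it was 0.998 when the KO and WT lists were cut to equal numbers of the widest peaks. The H3K27ac ratio was 0.999 over the 7 genes and 0.733 over the whole lists. For H3K27me3 it was 2.08 over the 7 genes and 1.90 over the whole lists.

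Peaks over these genes were mostly shared, a shared peak being one with at least 1 bp in common with a peak of that mark in the opposite genotype. For H3K27ac, 30 of 36 KO peaks (83.3%, exact Clopper-Pearson interval 67.2 to 93.6) and 30 of 41 WT peaks (73.2%, 57.1 to 85.8) were shared, against 67.5% of the whole KO list and 37.0% of the whole WT list. For H3K4me1 the shared peaks were 39 of 51 in KO (76.5%, 62.5 to 87.2) and 40 of 43 in WT (93.0%, 80.9 to 98.5), against 75.7% of the KO list and 76.5% of the WT list. For H3K4me3 they were 10 of 16 in KO (62.5%, 35.4 to 84.8) and 11 of 14 in WT (78.6%, 49.2 to 95.3), against 51.6% of the KO list and 82.0% of the WT list, and for H3K27me3 1 of 5 in KO and 1 of 3 in WT, against 48.6% of the KO list and 75.1% of the WT list. These 95% intervals cover counting error only and take each peak as independent of the next. The whole lists differed in length, and the shared part of a list depends on the length of both. H3K27ac had 44484 peaks in KO (median width 363 bp) and 81112 in WT (215 bp). H3K4me3 had 22724 in KO and 14984 in WT. H3K4me1 had 48458 in KO and 49363 in WT, and H3K27me3 31022 in KO and 20918 in WT. By gene, a KO-only H3K4me1 peak was listed at 6 of 7 genes, all but Nos3 (36.0% of all genes with the mark), and a WT-only H3K4me1 peak at Nos3, Cav1 and Edn1 (45.9%). A window with more peaks is more likely to hold at least 1 such peak. Each of these 7 windows held between 3 (Edn1) and 15 (Ece1) H3K4me1 peaks in KO. The median per window was 1.0 over all protein-coding genes, with or without the mark. The counts by gene here and below were not adjusted for this. A WT-only H3K27ac peak was listed at 5 of 7, all but Edn1 and Cav2 (64.4%), and a KO-only one at Ece1, Ace and Edn1 (31.7%). KO-only H3K4me3 peaks were listed at Ece1, Nos3 and Ace, and WT-only ones at Ptgis, Ece1 and Nos3 (42.3% and 13.7%). Many of these peaks were narrow. Without peaks under 200 bp, KO-only H3K4me3 peaks numbered 2 in place of 6 and WT-only H3K27ac peaks 3 in place of 11, and the numbers of H3K4me3 and H3K27ac peaks then differed between KO and WT in the opposite direction. H3K27me3 was in the window in KO only at Ece1 and Ptgis (15.7% of all genes with it) and in WT only at Cav1 (6.53%), and KO-only H3K27me3 peaks were at these first 2 genes and Nos3 (44.2%). WT-only H3K27me3 peaks were at Nos3 and Cav1 (21.0%). With equal numbers of the widest peaks in both lists, KO-only H3K27me3 peaks numbered 2 in place of 4. Of Nos3 and Edn1, the 2 genes with H3K27me3 in both genotypes, Edn1 had more in KO (77.5% of all such genes) and neither reached 1.5 times in either direction (44.8% and 7.45%).

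At the 10 listed starts H3K27ac lay within 1000 bp in both genotypes at 9, H3K4me3 at 8 and H3K4me1 at 7, against 46.7%, 46.9% and 36.7% of 20084 starts. H3K27me3 did so at 1, the Edn1 start, against 33.4% of all starts. The second Ace start was the one without H3K27ac, and no member start had H3K27ac nearby in 1 genotype only (3.39% in KO only and 9.03% in WT only of all starts with it). For H3K4me1 the corresponding counts were 0 in KO only (4.63%) and 1 of 8 in WT only, the second Cav1 start (20.7%). The fourth Ece1 start had H3K4me3 nearby in KO only (12.2% of starts with it) and no start had it in WT only (1.09%). The start base itself lay under H3K4me1 in WT only at the third and the fourth Ece1 starts (9.51% of starts with it nearby in both) and in KO only at none (3.81%). At these starts the KO H3K4me1 peak ended 7 bp and 15 bp before the start base, so the calls rest on a few bases. No member start base lay under H3K4me3 (1.02%) or H3K27ac (4.73%) in WT only, or under H3K27me3 in WT only among starts with it nearby in both (4.16%), of which Edn1 was the only one.

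Nos3, which makes the nitric oxide that relaxes smooth muscle, spans chr5:24364816-24384474. At its first annotated base KO had a 520 bp H3K4me3 peak (chr5:24364608-24365127) with no WT counterpart. The nearest WT H3K4me3 peaks began 761 bp and 1307 bp into the gene and were 186 and 314 bp wide, and KO shared the first of them with a 147 bp peak. H3K27ac covered the same first base in both genotypes, with 751 bp in KO and 822 bp in WT, as did H3K4me1 with 744 bp in KO and 437 bp in WT. Of gene ends with H3K4me3 within 1000 bp in both genotypes, 7.98% had a peak over the outermost base in KO only and 1.17% in WT only, and Nos3 and Ace were the 2 in KO only among 6 such ends of the members. The H3K4me3 cover of the Nos3 window was 844 bp in KO and 500 bp in WT, a ratio of 1.69.

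H3K27me3 at Nos3 consisted of 1 peak in each genotype, in different places. The KO peak (271 bp) lay from -3597 to -3327 bp, before the first base, on H3K27ac and H3K4me1 peaks of both genotypes. The WT peak (311 bp) lay over the first base, from -286 to 24 bp, again on H3K27ac and H3K4me1 of both. A pair of sites with H3K4me1 in both genotypes lay at the far end of the gene, from 18448 and 19603 bp. The first had H3K27ac in both, 476 bp wide in KO and 135 bp in WT, with a KO-only H3K4me3 peak of 177 bp on it. The second had a 405 bp H3K27ac peak in WT only and overlaps the neighbouring gene Atg9b (chr5:24384181-24392143), whose end lies inside the last bases of Nos3. H3K4me1 was wider in KO at all 5 shared Nos3 sites, by ratios of 1.10 to 1.70.

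Edn1, the endothelin-1 precursor gene, spans chr13:42301476-42307990, and its start was the only one of the 10 with all 4 marks in both genotypes. The share of all starts with all 4 marks in both was not computed. H3K4me3 at the Edn1 start was 536 bp wide in KO and 570 bp in WT, H3K27ac 386 bp in KO and 681 bp in WT, and H3K4me1 365 bp in KO and 391 bp in WT. The H3K27me3 peak was 348 bp in KO and 283 bp in WT, the only H3K27me3 peak shared by the genotypes in the 7 windows. H3K27me3 and H3K27ac thus covered the same bases in each genotype, and whether they lay in the same cells was not tested. All H3K27me3 peaks of the 7 windows overlapped an H3K27ac peak and an H3K4me1 peak of either genotype. The share of H3K27me3 peaks that do so over the whole lists was not computed. Whether this is particular to these genes is therefore unknown. At Ptgis the H3K27ac was in WT and the H3K27me3 in KO. Whether H3K27me3 at these genes goes with silencing was not tested.

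Inside Edn1, about the same stretch carried different marks in the 2 genotypes. From 2125 to 2950 bp past the start, KO listed H3K27ac (426 bp, chr13:42303601-42304026) and a pair of narrow H3K4me3 peaks of 118 and 134 bp. WT listed no H3K27ac there, a single H3K4me3 peak of 748 bp (chr13:42303679-42304426) and an H3K4me1 peak of 336 bp. Over the whole window H3K4me3 covered 788 bp in KO and 1318 bp in WT (ratio 0.598). H3K4me1 was listed in KO only at 5364 to 5692 bp and at 6794 to 7090 bp, the second just past the last base of the gene, and neither site had any other mark.

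Ace, spanning chr11:105967948-105989964, had the largest H3K4me3 difference of the 6 genes with the mark in both genotypes. In KO a single H3K4me3 peak of 1504 bp (chr11:105967797-105969300) ran from -151 to 1352 bp around the first start, wider than 96.3% of the KO list. In WT the same stretch held 2 narrower peaks, of 203 bp and 405 bp, the first of which began 441 bp past the start. H3K27ac was likewise wider in KO, 603 bp from -55 to 547 bp, against 226 bp from 314 to 539 bp in WT. The first Ace start, with the GC boxes and the opposite-strand TATAAA match described above, was thus under H3K4me3 and H3K27ac in KO and under neither in WT. Among starts with the mark within 1000 bp in both genotypes, 8.33% were covered by H3K4me3 in KO only and 2.66% by H3K27ac in KO only. H3K4me3 covered 1661 bp of the Ace window in KO and 608 bp in WT, a ratio of 2.73. The KO total includes a KO-only peak of 157 bp at 1599 bp.

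Ace is known to have an internal promoter used in testis. At the second listed start, 7241 bp into the gene, none of the 8 lists had a peak within 1000 bp. Elsewhere in Ace, H3K4me1 was shared at 6 sites. The widest, at 18856 to 20036 bp, was 1181 bp in KO and 929 bp in WT, and H3K27ac on it was 248 bp in KO and 600 bp in WT. At 10553 bp a KO-only H3K27ac peak of 477 bp lay on H3K4me1 of both genotypes. KO-only H3K4me1 peaks of 337 and 168 bp lay at 3766 and 4467 bp with no other mark. Ace had no H3K27me3 peak in either genotype. The lncRNA gene Gm11651 (chr11:105965607-105985694) overlaps 17747 bp of Ace, and peaks there cannot be assigned to either gene.

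**Figure D2:**
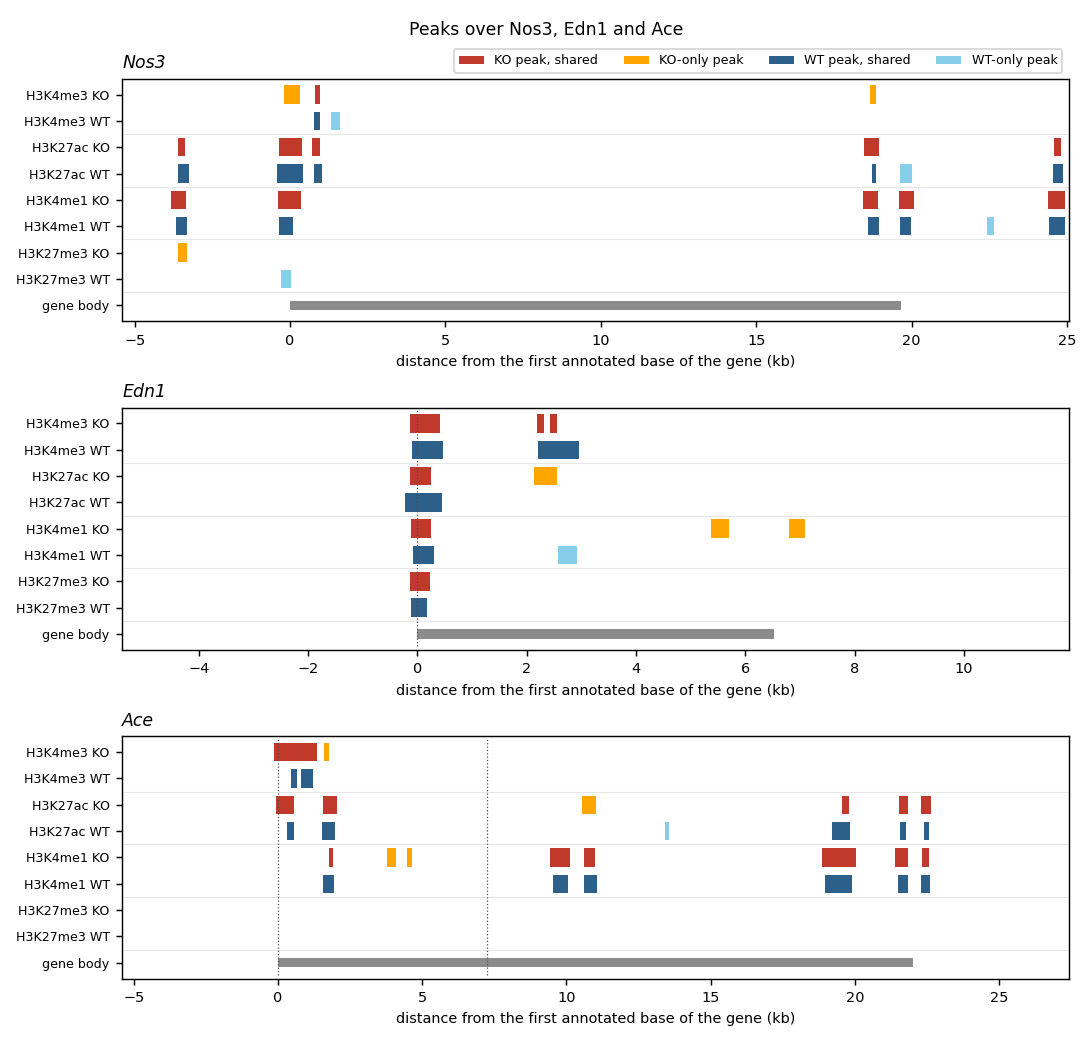
Peaks of the 8 lists over Nos3, Edn1 and Ace by distance in kb from the first annotated base of the gene, with each KO row above the WT row of the same mark, shared and genotype-only peaks in different colours, and dotted lines at RefSeq starts. H3K4me3 in KO covers the first base of Nos3 (520 bp peak) and Ace (1504 bp peak), where the WT row is empty, and the start of Edn1 carries all 4 marks in both genotypes.

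Ece1, the endothelin-converting enzyme gene, is the longest of the 7 (102993 bp, chr4:137862237-137965229) and had the most peaks, with 19 separate marked sites. Its first 2 starts had H3K4me3 of 566 bp in KO and 649 bp in WT, H3K27ac of 522 bp in KO and 627 bp in WT, and H3K4me1 of 326 bp in KO and 312 bp in WT. A KO-only H3K27me3 peak of 537 bp (chr4:137861814-137862350) lay on them. Of starts with H3K27me3 within 1000 bp in either genotype, 17.7% had it in KO only. The third start, 51321 bp into the gene, was flanked rather than covered by H3K4me3. KO had a 228 bp peak from 51508 bp, and WT had 149 bp from 51110 bp and 495 bp from 51665 bp. The H3K4me1 peak at this start was 189 bp in KO, ending at 51314 bp, and 926 bp in WT, covering the start, so that the width ratio of 0.204 was the lowest of any matched pair in the 7 genes. H3K27ac covered the start in both, with 390 bp in KO and 680 bp in WT.

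The fourth Ece1 start, at 58556 bp, lay at the edge of the widest site of the gene, with H3K27ac of 1236 bp in KO and 1197 bp in WT and H3K4me1 of 1293 bp in KO and 1253 bp in WT. The H3K27ac peaks covered the start in both genotypes. The H3K4me1 peak did so in WT only, and in KO it ended 15 bp before the start. The largest KO over WT width ratios of H3K4me1, 2.44 and 2.98, were at 2 sites that had no other mark, 828 bp in KO and 340 bp in WT at 34535 bp and 555 bp in KO and 186 bp in WT at 36246 bp. KO-only H3K4me3 was listed at 3 places that carried H3K4me1 in both genotypes, 166 bp at 2691 bp, 179 bp at 59383 bp and 261 bp at 68982 bp. The first and the last of these also had H3K27ac in both genotypes, and the last had the second Ece1 H3K27me3 peak of KO (228 bp). Genotype-only H3K27ac peaks were narrow, 173 to 294 bp at 4 places in KO and 108 to 262 bp at 3 in WT. The total H3K27ac cover was almost equal, 4764 bp in KO and 4860 bp in WT.

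Ptgis, the prostacyclin synthase gene (chr2:167203194-167252150), was the member with the least promoter-type marking. No H3K4me3 peak of either genotype lay near either end of the gene. The only one, 314 bp in WT (chr2:167240336-167240649), lay 37142 bp from the first annotated base. At this place WT had H3K4me3 and H3K27ac (175 bp) and neither H3K4me1 nor H3K27me3, whereas KO had H3K4me1 (327 bp) and H3K27me3 (377 bp) and neither of the other marks. At 3 sites Ptgis had H3K4me1 and H3K27ac in both genotypes, beginning 5606, 28785 and 51036 bp from the first base. The third lay beyond the gene end of highest coordinate. Distances run from the end of lowest coordinate, and no start or strand was listed for Ptgis. Whether that site lies before or after the gene in the direction of transcription was therefore not read. At the first, KO peaks were more than 2 times wider, with H3K27ac of 656 bp in KO and 308 bp in WT and H3K4me1 of 836 bp in KO and 395 bp in WT. Of the 7 WT H3K27ac peaks, 4 were WT-only, each of 99 to 175 bp.

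**Figure D3:**
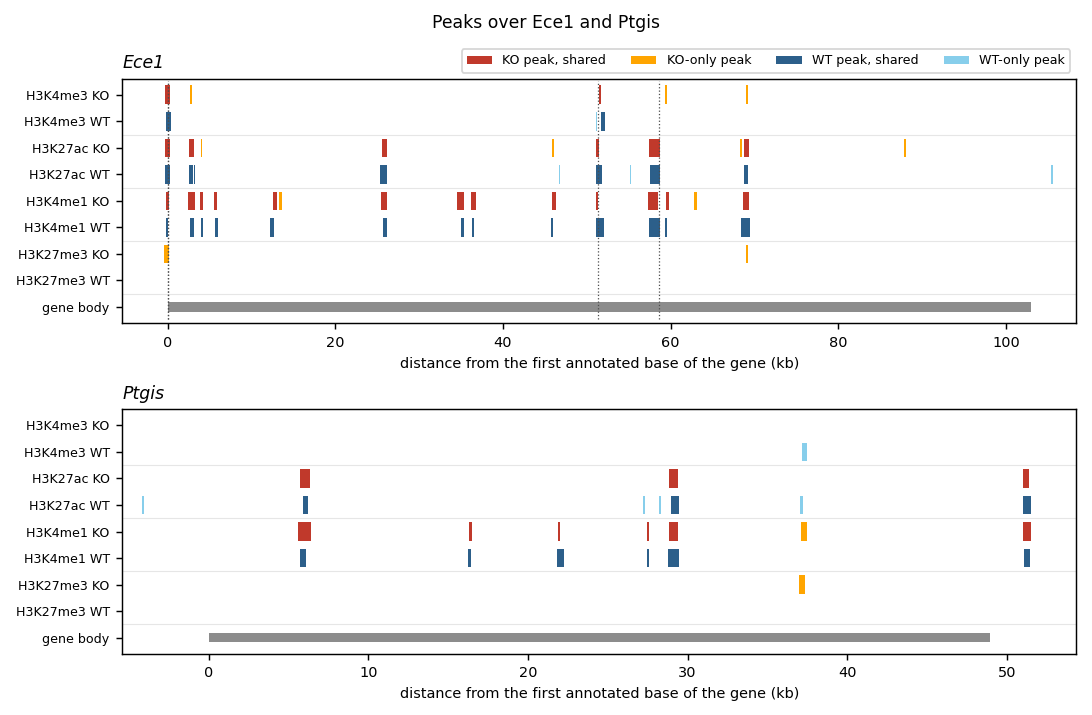
Peaks of the 8 lists over Ece1 and Ptgis by distance in kb from the first annotated base of the gene, with each KO row above the WT row of the same mark and dotted lines at RefSeq starts of Ece1. H3K27me3 is listed over Ece1 and Ptgis in KO only (2 peaks and 1 peak), and the single H3K4me3 peak of Ptgis is in WT only.

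Cav1 and Cav2, the caveolin genes, lie side by side on chromosome 6 (chr6:17306335-17341328 and chr6:17281185-17289130). Their windows do not overlap. Both had H3K4me3 and H3K27ac over their starts in both genotypes, and no H3K4me3 peak at either gene was in 1 genotype only. At the first Cav1 start H3K4me3 was 849 bp in KO and 839 bp in WT, and at the second, 1305 bp further, 1058 bp in KO and 902 bp in WT. H3K27ac at these starts was 735 bp in KO and 879 bp in WT, then 970 bp in KO and 1104 bp in WT. H3K4me1 at the first start was 536 bp in KO and 528 bp in WT, and at the second a 136 bp peak was in WT only. A 253 bp H3K27me3 peak over the first Cav1 start (chr6:17306216-17306468) was in WT only, which held for 7.69% of starts with the mark in either genotype.

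The widest H3K4me1 peaks of Cav1 lay 9698 to 11039 bp past the start in KO and 9664 to 11045 bp past it in WT. They were 1342 bp in KO and 1382 bp in WT, wider than 98.3% of the KO list and 99.8% of the WT list. H3K27ac on them was split in KO into peaks of 234 and 423 bp, and was 1 peak of 904 bp in WT. Another site at 23074 bp had H3K27ac of 864 bp in KO and 484 bp in WT, but H3K4me1 of 472 bp in KO and 675 bp in WT. At 14052 bp KO listed H3K4me1 alone (277 bp) and WT listed H3K27ac alone (180 bp).

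At the Cav2 start the KO H3K4me3 peak was 1685 bp wide (chr6:17280831-17282515), wider than 97.9% of the KO list, and the same stretch in WT held peaks of 906 and 310 bp with a gap between them. H3K27ac over this start was 1171 bp in KO and 965 bp in WT, and H3K4me1 684 bp in KO and 760 bp in WT. Sites at -4414 bp and 5296 bp from the start had H3K4me1 and H3K27ac in both genotypes. The second had nearly equal widths, 614 bp of H3K27ac in KO and 623 bp in WT. Past the last base of Cav2, KO listed 3 H3K4me1 peaks of 192, 409 and 213 bp between 11565 and 12503 bp, all KO-only, and H3K27ac was shared there, 318 bp in KO and 208 bp in WT. Cav2 and Ace were the members with no H3K27me3 peak in either genotype.

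Peaks of any list that overlapped were joined into 64 separate sites over the 7 genes. Of these, 24 (37.5%) had H3K4me1 and H3K27ac in both genotypes, against 19.2% of 87379 sites in the windows of all protein-coding genes. They numbered 6 at Ece1, 4 each at Nos3 and Ace, 3 each at Ptgis, Cav1 and Cav2, and 1 at Edn1. The same set of marks in both genotypes was found at 27 sites (42.2%, against 26.0%). A site with marks in KO only was found 9 times (14.1%, against 22.8%), and 8 of these were H3K4me1 alone (12.5% of the 64 sites, against 6.52% of all sites). A site with marks in WT only was found 10 times (15.6%, against 33.5%), and 8 of these were H3K27ac alone (12.5%, against 21808 of the 87379 sites). Sites of 1 gene are not independent, so these shares carry no interval.

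Where a KO peak overlapped a single WT peak and the reverse, widths were compared pair by pair. Of 38 H3K4me1 pairs 22 were wider in KO (57.9%, against 64.0% of all such pairs), with a median KO over WT ratio of 1.04 against 1.13. Of 27 H3K27ac pairs 14 were wider in KO (51.9%, against 43.6%), with a median of 1.03 against 0.953. Of 6 H3K4me3 pairs 2 were wider in KO, both at Cav1 (73.1% of all pairs), with a median of 0.906 against 1.18. The broad KO peaks of Ace and Cav2 are outside this comparison, since each overlapped 2 WT peaks.

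**Figure D4:**
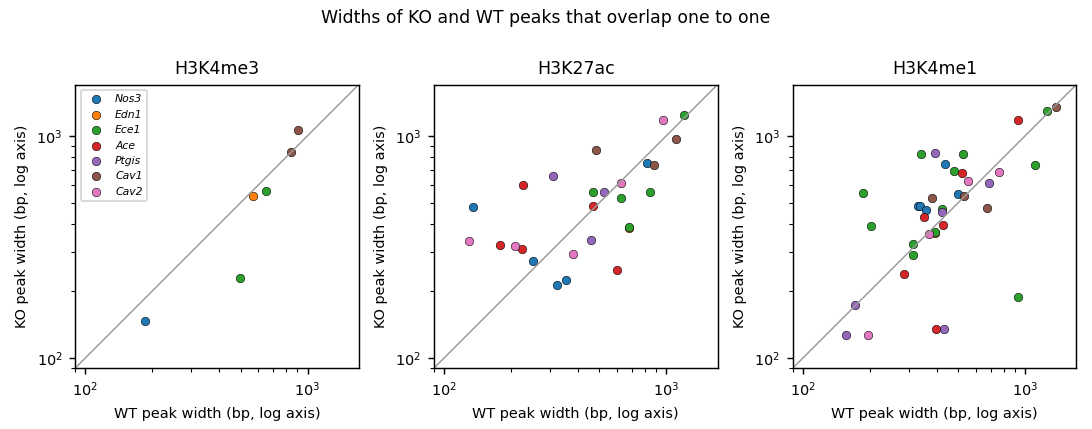
Width in bp of each KO peak (vertical, log axis) against the WT peak it overlaps (horizontal, log axis) for H3K4me3, H3K27ac and H3K4me1 over the 7 genes, 1 point per pair and 1 colour per gene, with a line of equal width. Points lie on both sides of the line for each mark, 22 of 38 above it for H3K4me1, 14 of 27 for H3K27ac and 2 of 6 for H3K4me3.

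Other genes of these pathways were read in the same way from 6 lists with 66 genes, of which 63 were found among the protein-coding genes of chromosomes 1 to 19. Of the 63, 29 had H3K4me3 at a start in both genotypes, 9 in KO only and 1, Ramp3 (a receptor partner for adrenomedullin), in WT only. Over all genes with H3K4me3 at a start, 12.4% had it in KO only and 1.12% in WT only. These shares, and those in brackets below, are of genes with the mark at a start, and so are not to be set against all 63 genes. In alphabetical order the KO-only genes began with Adm (adrenomedullin), Bdkrb2 (a bradykinin receptor), Ednra (the endothelin A receptor), Gucy1a2 (a subunit of the nitric oxide receptor), Pacsin3 (a membrane-bending protein of caveolae), Pla2g4a (a phospholipase that frees arachidonic acid), Ptger2 (a prostaglandin E receptor) and Ptgs1 (a prostaglandin G/H synthase). Prostanoid genes made up 4 of the 9, among 9 genes of that list, and the list of other caveolae genes had H3K4me3 in both genotypes at 8 of 11. H3K4me1 at a start was in both genotypes at 30 genes, in WT only at 12 (20.3% of all genes with it) and never in KO only (4.49%), while H3K27ac was in both at 33, with none in KO only (3.26%) and 4 in WT only (9.46%). H3K27me3 was in both at 29. It was in KO only at Bdkrb2, Cavin1, Ddah2, Edn2 and Npr1 (17.3%) and in WT only at Aplnr and Ptgs1 (7.63%). Among H3K4me1, H3K27ac and H3K27me3 peaks over the 63 genes, the genotype-only ones of at least 1000 bp were all of H3K27me3 in KO, at Edn2 (1148 bp), Enpep (1284 bp), Kcnn3 (1050 bp) and Mas1 (1055 and 1866 bp). The share of such wide peaks over all genes was not computed. Of any width, the whole H3K27me3 lists held 15947 KO-only and 5203 WT-only peaks, so this is not read as particular to these genes.

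Genes most like each member were found by the summed absolute difference in percent of window covered, over the 8 lists. Ace was closest to Kdr, the main receptor of vascular endothelial growth factor (4.98 percentage points in all, of a summed cover of 40.7 for Ace), then Trim47 and Notch1. Nos3 was closest to Iffo2 (2.79 of 34.1), Ndst1 and Entpd1, and Ece1 to Arid3b (2.47 of 24.9), Tbc1d8 and Rasa3. Edn1 was closest to Scd2 (5.82 of 36.0), Ssna1 and Xcr1, and Ptgis to Cdrt4 (1.53 of 15.2), Optc and Frmd4a. Cav1 was closest to Mtmr11 (3.68 of 38.7), Ap3m1 and Mrpl15, and Cav2 to Myct1 (7.28 of 69.3), Zfp319 and Ly6e.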

How the data were processed

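ACT-seq had been run on sorted lung endothelial cells with antibodies to H3K4me3, H3K27ac, H3K4me1 and H3K27me3. The values are the peak lists the authors deposited, 1 per mark and genotype, each row giving chromosome, first base, last base and width in bp, of the unit class other, with no score, fold or p-value. Per the submitters' processing notes, the tools were MACS2 2.1.2.1, deepTools 3.1.1, SAMtools, Bowtie2 2.2.6, cutadapt 1.14 and Trim Galore 0.4.4, and the builds R64 and mm10. The sources used here do not give the peak threshold or any pooling of samples. H3K9me3 was not analysed here.

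Overlaps were computed with scipy 1.17.1, pandas 2.3.3 and numpy 2.4.6 in Python 3.11.15, and plots made with matplotlib 3.10.9. A peak counted for a gene if it overlapped the RefSeq gene body or 5000 bp on either side, and covered bases were cut at the window. Starts came from the RefSeq promoter table for 16456 genes, and both outer ends served where it lists none, as for Nos3 and Ptgis. A covered-length ratio was called at 1.5. The overlap step was run on simulated lists, in which 60.00% of 10000 peaks were made to overlap and 60.00% were recovered. The peaks made not to overlap were picked with the same step, so this recovery was not an independent check. Peak counts and covered bases were also compared with a direct count in 300 windows of 1 chromosome for each mark, and 0 were wrong. Depth per sample is unknown. The members and lists were chosen with earlier results of these data known. All 7 members are named. Of pathway genes, those with H3K4me3 at a start in 1 genotype only or another genotype-only peak of at least 1000 bp could be named, up to 8 a mark in alphabetical order. Ramp3 and the genes with H3K27me3 at a start in 1 genotype only were named after their values were seen. Alternatives were other windows, width limits and overlap rules.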

Additional observations from a re-analysis of the deposited data

How the results depend on the processing

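The counts over the 7 genes were recomputed with the gene body alone, with 20000 bp on each side, without peaks under 200 bp, with equal numbers of the widest peaks in the KO and WT lists of a mark, and with 2 other rules of sharing. Of 80 such values, 78 stayed inside the counting interval of the reported value, which is wide at these small numbers. The 2 that did not were the share of WT H3K27ac peaks shared with KO, 89.7% without peaks under 200 bp and 89.7% with equal numbers, against 73.2%. The order of the peak numbers turned for H3K4me3, with 9 in KO and 12 in WT without peaks under 200 bp and 8 in KO and 14 in WT with equal numbers, against 16 in KO and 14 in WT. It also turned for H3K27ac, with 33 in KO and 29 in WT, then 36 in KO and 29 in WT, against 36 in KO and 41 in WT. Equal numbers cut the KO list for H3K4me3 and the WT list for H3K27ac. KO-only H3K4me3 peaks numbered 2 under both settings, against 6, and 10 with 20000 bp on each side. WT-only H3K27ac peaks numbered 3 under both, against 11, and 18 with 20000 bp. WT-only H3K4me3 peaks numbered 6 with equal numbers and 1 when peaks within 500 bp counted as shared, against 3. With 20000 bp on each side H3K27me3 peaks numbered 13 in KO and 8 in WT, against 5 in KO and 3 in WT. With equal numbers they were 3 in KO and 3 in WT, a ratio of 1.00 against 1.67, and KO-only ones numbered 2 against 4. The KO over WT ratio of H3K4me1 peak number lay between 1.11 and 1.21 under the first 4 settings. For summed H3K4me3 width the ratio was 1.08 without peaks under 200 bp, 0.998 with equal numbers and 1.32 with 20000 bp, against 1.19. For H3K27ac, with peaks not cut at the window, these were 1.06, 1.09 and 0.914, against 0.995. For H3K27me3 the ratio was 1.49 with equal numbers and 2.25 with 20000 bp, against 2.08. No paired analysis was possible because the lists carry no value per sample, and for the same reason leaving out each replicate was not run.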
